A study of Homo sapiens with 8 samples.

Results

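Integrin subunit genes were followed in RNA-seq libraries of the human colon cancer lines HCT-8 and HCT-8/FU. The set held 10 genes, the alpha subunits ITGA2, ITGA3, ITGA6, ITGAV and ITGAE and the beta subunits ITGB1, ITGB4, ITGB5, ITGB6 and ITGB8. They were chosen by symbol, with earlier results of these data known, so their counts beside all tested genes are a description only. All 10 were found among the 64253 genes counted. Of these 10 genes, 9 had enough counts to be tested, among 20305 tested genes in all, and ITGB6 did not. The 4 groups held 2 replicates each. HCT-8 cells are sensitive to the chemotherapy drug 5-FU and were grown in unconditioned medium. HCT-8/FU cells, which resist the drug, were grown in the same way. The other groups, CM of HCT-8 and CM of HCT-8/FU, were both sensitive HCT-8 cells, kept in conditioned medium (CM) that the named cells had been grown in for 48 h. No group is described as receiving 5-FU before RNA was taken. Resistance is represented by a single line, and nothing in the descriptions says that replicates came from separate cultures, so the tests measure the spread between these libraries, which may be technical.

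Integrins are receptors on the cell surface, built from an alpha and a beta subunit, that bind proteins of the extracellular matrix or of neighboring cells and link them to the cytoskeleton. ITGA2, ITGA3, ITGA6 and ITGAV can each pair with ITGB1. ITGA6 also pairs with ITGB4 in hemidesmosomes, the anchors of epithelial cells on the basement membrane, and ITGAV also pairs with ITGB5, ITGB6 and ITGB8, which bind vitronectin, fibronectin or the latent form of TGF-beta. ITGAE is best known on lymphocytes of the gut lining, where it pairs with ITGB7 and holds on to E-cadherin. In the colon, the receptors that bind laminin and collagen anchor the epithelium.

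Counts on genes came to between 5804124 and 34881349 in a library, and between 3.58% and 29.6% of a library's records were not aligned. Over 15% were not aligned in HCT-8 replicate 1, HCT-8/FU replicate 2 and CM of HCT-8 replicate 1, and CM of HCT-8/FU held no such library. In every group the replicates were further apart than sampling noise, so they were counted separately. The 7 intestinal epithelial markers summed to between 9330 and 11670 CPM (counts scaled to library size) in a library, against 12.5 to 22.3 for 5 fibroblast markers, 0.501 to 1.84 for 5 leukocyte markers and 1.27 to 2.45 for 4 endothelial markers. Among them PTPRC, CD3E and COL1A2 were at 0 counts in every library. Bulk counts cannot separate fewer cells with a transcript from less of it in each cell.

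On GRCh38, ITGAV (ENSG00000138448) spans chr2:186590010-186680901, ITGA2 (ENSG00000164171) chr5:52989340-53094779 and ITGB8 (ENSG00000105855) chr7:20330702-20415754, all on the plus strand. The genes differ in base composition, which is given here because the results below are set against it. In GENCODE 44 on GRCh38, the exons of ITGAV hold 36.7% G and C, those of ITGB8 39.1%, ITGA2 40.2%, ITGB6 41.1%, ITGB1 41.8% and ITGA6 42.5%. ITGAE (52.7%), ITGB5 (54.0%), ITGA3 (57.4%) and ITGB4 (64.0%) lie on the other side. The protein-coding bases of ITGAV hold 44.9% G and C and the rest of its transcript 32.9%. The end of the coding sequence shows the part of the protein that faces the cytoskeleton. All 5 alpha subunits carry in frame, within their last 60 codons, bases of the GFFKR motif next to the membrane (its first 4 codons on the coding strand, with the last base of each codon free), whereas 0.172% of 19730 human coding sequences do. They are printed from this motif, in capitals, to the last coding base, all within a single exon of the reference transcript. Apart from the last base of each codon, the bases of the motif are alike by the search itself. ITGAV lies at chr2:186677200-186677289 on the plus strand, ITGA2 at chr5:53090522-53090596 (plus), ITGA6 at chr2:172501775-172501876 (plus), ITGAE at chr17:3714850-3714939 (minus) and ITGA3 at chr17:50088228-50088332 (plus).
ITGAV: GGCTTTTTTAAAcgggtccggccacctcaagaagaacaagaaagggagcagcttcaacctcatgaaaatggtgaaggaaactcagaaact
ITGA2: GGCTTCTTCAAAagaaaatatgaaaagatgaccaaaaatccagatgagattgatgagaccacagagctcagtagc
ITGA6: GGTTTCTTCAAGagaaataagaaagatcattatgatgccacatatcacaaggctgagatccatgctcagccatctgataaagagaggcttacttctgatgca
ITGAE: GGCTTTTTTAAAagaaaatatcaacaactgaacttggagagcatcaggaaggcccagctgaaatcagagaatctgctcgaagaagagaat
ITGA3: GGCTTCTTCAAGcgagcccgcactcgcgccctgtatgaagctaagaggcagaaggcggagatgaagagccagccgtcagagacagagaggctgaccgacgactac
Of these stretches, that of ITGAV holds 45.6% G and C, that of ITGA6 40.2% and that of ITGA2 38.7%. ITGA3 holds the most of the 5. Counts per gene do not separate transcripts, so they cannot tell apart the known alternative tails of ITGA3 and ITGA6.

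Beta tails carry a motif of their own that binds talin and kindlin. This NPXY motif was searched as in-frame codons with the last base free, on the coding strand of the last 60 codons. It was found at 2 positions in ITGB1, at 1 each in ITGB5 and ITGB6, and at none in ITGB4 and ITGB8. Of all coding sequences, 0.872% held any. Matches before the last 60 codons were not sought. This leaves out most of ITGB4, which has 1822 codons against 769 to 799 in the other beta subunits. The stretch of ITGB1, at chr10:32901573-32901629 on the minus strand, is shown from its first match to its last coding base, with both matches in capitals.
ITGB1: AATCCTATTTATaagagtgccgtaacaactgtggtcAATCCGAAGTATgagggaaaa

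The level of each gene was set as CPM per kilobase of its reference transcript, so that genes of different length can be compared. By the mean over 8 libraries, ITGB1 came to 130.2 CPM per kilobase, ITGA3 to 123, ITGA6 to 93.96 and ITGB4 to 84.5. ITGB5 followed with 35.4, ITGA2 with 17.5, ITGAV with 17.5 and ITGAE with 3.57. ITGB8 (0.163) and ITGB6 (0.0344) were far lower. The abundant genes are thus the subunits of the laminin receptors, ITGA3 with ITGB1 and ITGA6 with ITGB4, and of the partners of ITGAV besides ITGB1 the most abundant was ITGB5. The order rests on the length used for a gene. The union of all annotated exons is far longer than the reference transcript for ITGB1, ITGAV, ITGA3, ITGAE and ITGB8. With this union, ITGA6 came first with 81.8 CPM per kilobase, before ITGB4 (73.7), ITGA3 (61.3) and ITGB1 (33.4). The order below them was the same.

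**Figure D1:**
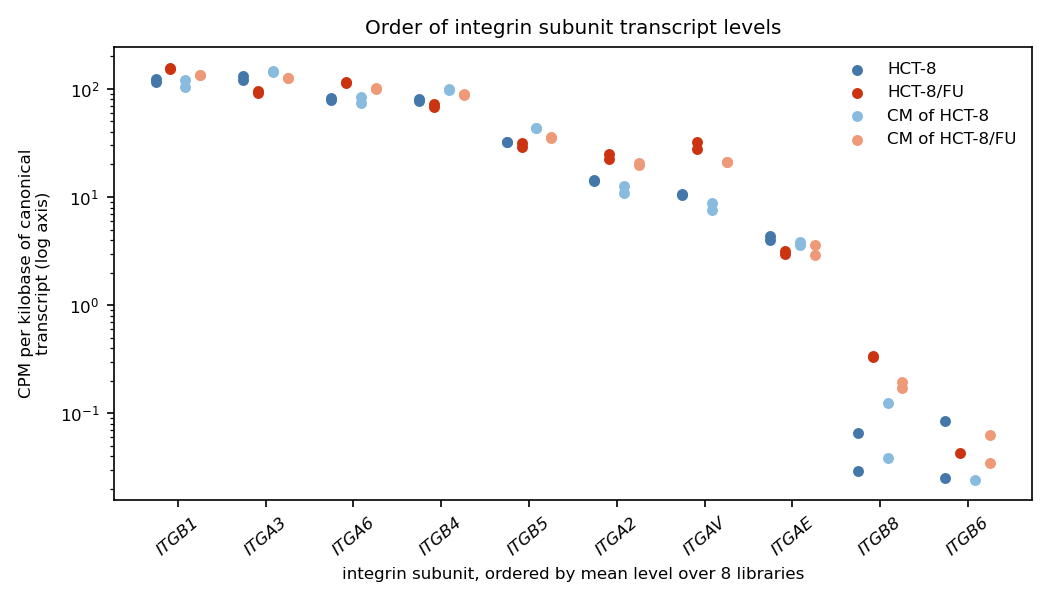
Level of each integrin subunit per kilobase of reference transcript, in CPM on a log axis, 1 point for each library and 1 color for each group. The 2 libraries in which ITGB6 had 0 counts cannot be drawn on this axis. The genes run from 103 to 157 CPM per kilobase for ITGB1 down to below 0.1 for ITGB6, and ITGAV and ITGB8 show the largest distance between groups.

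The order changed between groups. In HCT-8, ITGA3 (126) and ITGB1 (119) led with overlapping libraries, and ITGA6 (80.4) and ITGB4 (79.7) also overlapped. In HCT-8/FU, ITGB1 (155) was followed by ITGA6 (115), ITGA3 (94.3) and ITGB4 (70.3), with no overlap between neighbors. ITGAV reached 30.1 CPM per kilobase there and overlapped with ITGB5 (30.2), whereas in HCT-8 it lay at 10.5 against 32.2 for ITGB5. In CM of HCT-8, ITGA3 (145) led before ITGB1 (112), ITGB4 (99.2) and ITGA6 (79.3), again with no overlap between neighbors. In CM of HCT-8/FU, ITGB1 (134) and ITGA3 (125) led, and neighbors did not overlap either. ITGAV (21.0) lay above ITGA2 (20.4) there, which it did not in CM of HCT-8 (8.28 against 11.7). At the other end, ITGB6 and ITGB8 overlapped in HCT-8 only.

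The ratio of ITGA6 to ITGB4, the subunits of the hemidesmosome receptor, differed by group. On the same scale HCT-8 gave 1.05 and 0.963, HCT-8/FU gave 1.58 and 1.70, CM of HCT-8 gave 0.839 and 0.758, and CM of HCT-8/FU gave 1.13 and 1.14. No group overlapped with another in this ratio, and HCT-8/FU lay highest. ITGB1 made up 52.7% and 50.4% of the summed level of the 5 beta subunits in HCT-8. Its share was 60.1% and 61.2% for HCT-8/FU, 45.8% and 42.1% for CM of HCT-8, then 51.9% and 51.8% for CM of HCT-8/FU. ITGAV made up 4.59% and 4.34% of the 5 alpha subunits in HCT-8. Its share was 11.9% and 10.7% for HCT-8/FU, 3.48% and 3.18% for CM of HCT-8, then 7.74% and 7.77% for CM of HCT-8/FU. The shares rest on the length used. With the union of exons, ITGB1 made up 26.0% and 24.1% of the beta subunits in HCT-8 and 32.1% and 33.2% in HCT-8/FU, and ITGAV made up 2.55% and 2.45% of the alpha subunits in HCT-8 and 6.32% and 5.63% in HCT-8/FU, while the ratio of ITGA6 to ITGB4 hardly moved. On that scale ITGAV (11.7 and 10.2 CPM per kilobase) did not overlap with ITGB5 (19.9 and 21.3) in HCT-8/FU, and it lay below ITGA2 in every library. These genes also differ in base composition, which moved with the groups, and its part in the ratios was not tested.

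**Figure D2:**
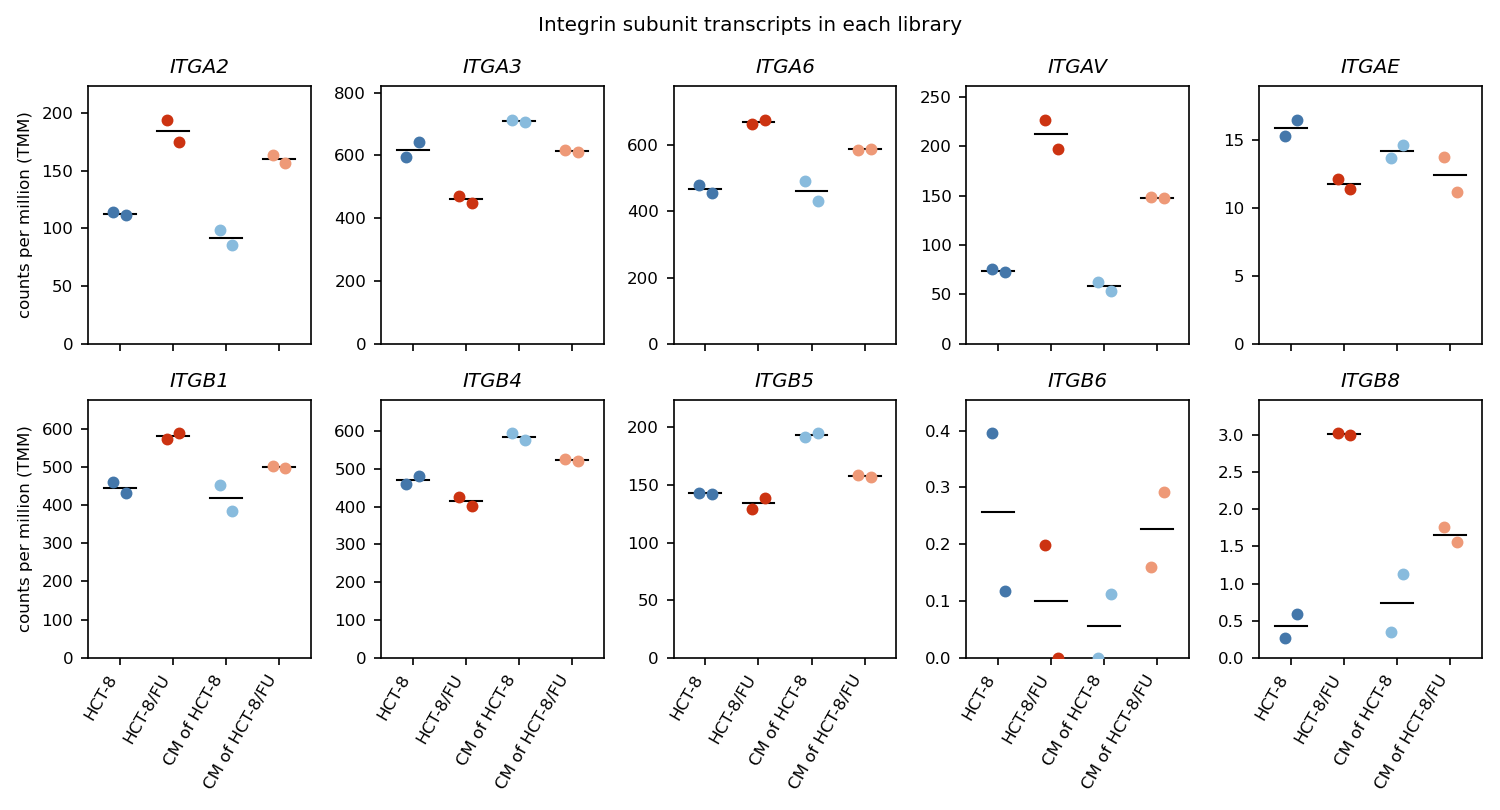
TMM-normalized level of each of the 10 genes in CPM, on a linear axis from 0 in every panel, with 1 point for each library and a line at the mean of the 2 replicates. ITGAV, ITGA2, ITGA6, ITGB1 and ITGB8 lie above their control group in both resistant libraries and in both libraries given CM of HCT-8/FU. ITGB6 stays below 0.4 CPM.

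HCT-8/FU was compared with HCT-8 to ask which integrin transcripts differ between the resistant and the sensitive line. ITGAV, ITGA2 and ITGB8 were higher in HCT-8/FU past the FDR and fold thresholds given next, and none of the tested members was lower past both. A gene was called DE where its FDR did not exceed 0.05 and its log2 fold change (log2FC) reached 0.58 in either direction, which are the thresholds of the study. Of all tested genes, 21.3% were DE in this comparison, 13.2% higher and 8.12% lower, and 61.9% of the DE genes were higher. Among the members, 3 of 9 were DE. The FDR alone was passed by 8 of 9 members, against 36.7% of all tested genes, with ITGAE and ITGB4 close to the limit. The libraries of the groups did not overlap for 9 of 9 members, against 65% of all tested genes. The median log2FC was 0.38 over the 9 members and 0.0082 over all tested genes. With the correction for base composition and gene length described further on, the median over the members was 0.040.

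ITGAV, the alpha subunit of the vitronectin receptors, had 75.3 and 72.9 CPM for HCT-8 against 227 and 197 for HCT-8/FU. Both libraries of HCT-8/FU lay far above both of HCT-8. The log2FC was 1.53 (standard error 0.0914, FDR = 2.07e-08 by edgeR), which is 2.88-fold. ITGAV shares 203 exonic bases with a long noncoding RNA on the other strand, whose reads cannot be told apart if strand was not used. ITGA2, the collagen-binding alpha subunit, had 114 and 111 CPM for HCT-8 against 194 and 175 for HCT-8/FU. Its libraries did not overlap either, and its log2FC was 0.72 (standard error 0.0857, FDR = 9.59e-06 by edgeR).

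ITGB8, a partner of ITGAV that takes part in activating TGF-beta, was near the limit of detection. HCT-8 gave 2 and 20 counts, or 0.263 and 0.591 CPM. HCT-8/FU gave 91 and 18 counts, or 3.02 and 3.01 CPM. The replicates of HCT-8/FU, which differ in depth (28444413 and 5804124 counts on genes), gave nearly the same level. The log2FC was 2.57 (standard error 0.512, FDR = 0.000964 by edgeR). ITGB6, the partner of ITGAV found in many carcinomas, had 3 and 4 counts for HCT-8, 6 and 0 for HCT-8/FU, 0 and 3 for CM of HCT-8, then 5 and 9 for CM of HCT-8/FU. At these counts no difference between groups was detectable. ITGB6 also shares 966 exonic bases with a long noncoding RNA on the same strand.

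The other members passed the FDR without reaching the fold threshold, apart from ITGB5. ITGAE (FDR = 0.046 by edgeR) and ITGB4 (FDR = 0.0451 by edgeR) passed narrowly. Neither passed in DESeq2 or with another TMM reference. With the correction for base composition and gene length, ITGA3 still passed (FDR = 0.0249 by edgeR). ITGA6 (FDR = 0.0835 by edgeR), ITGB1, ITGB4 and ITGAE did not. ITGA6 had 479 and 456 CPM for HCT-8 against 664 and 676 for HCT-8/FU (log2FC 0.52). ITGB1, the common partner of most alpha subunits, had 460.1 and 431 CPM for HCT-8 against 572 and 587 for HCT-8/FU (log2FC 0.38). Both genes lay above in each library of HCT-8/FU. ITGA3 had 595 and 642 CPM for HCT-8 against 472 and 449 for HCT-8/FU (log2FC −0.42). ITGB4 had 460.0 and 480.3 CPM for HCT-8 against 427 and 402 for HCT-8/FU (log2FC −0.18). ITGAE had 15.3 and 16.5 CPM for HCT-8 against 12.2 and 11.4 for HCT-8/FU (log2FC −0.43). These 3 genes lay below in each library of HCT-8/FU. ITGAE shares 427 exonic bases with HASPIN on the other strand, so part of its counts may not be its own if strand was not used in counting. ITGB5 had 143 CPM in each HCT-8 replicate, against 129 and 139 for HCT-8/FU (log2FC −0.10, FDR = 0.346 by edgeR).

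**Figure D3:**
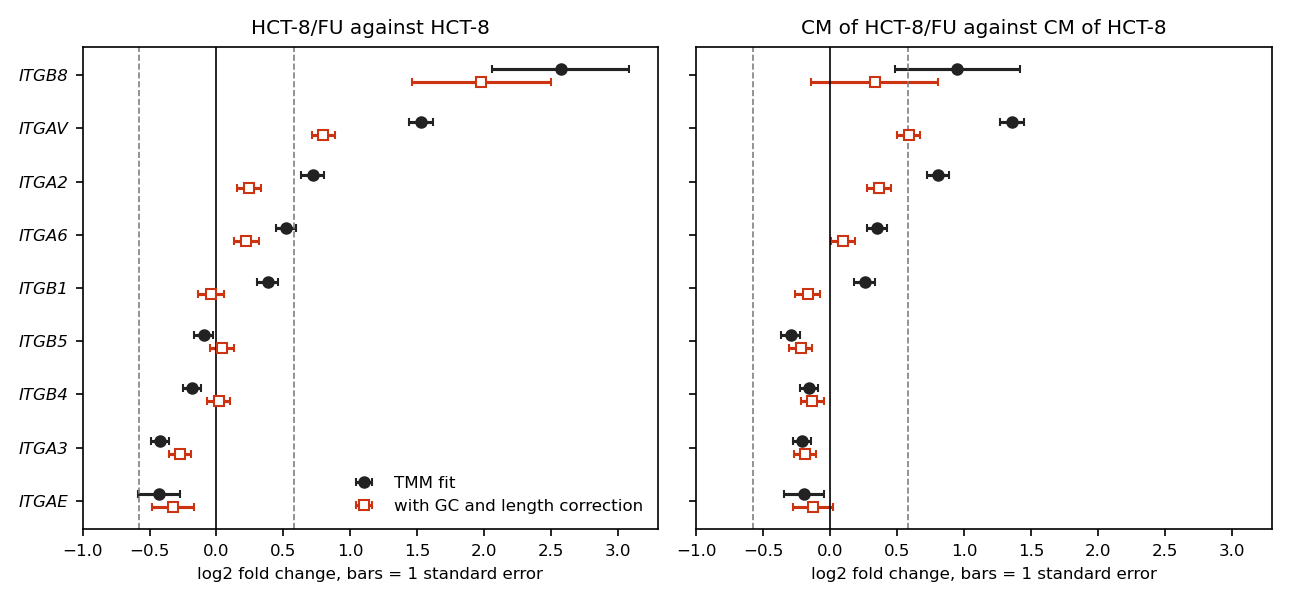
Log2 fold change of the 9 tested members in both main comparisons, with bars of 1 standard error. Filled points are from the TMM fit, open squares from the fit that removes trends with exon length and base composition, and dashed lines mark the fold threshold of 0.58. ITGAV lies past the threshold in each panel with and without the correction, ITGA2 only without it.

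CM of HCT-8/FU was compared with CM of HCT-8 to ask whether medium of the resistant cells changes the same transcripts in sensitive cells. The libraries of this comparison are all sensitive HCT-8 cells. Its groups are not those of the comparison of the lines. All libraries were fitted together, however, and share the normalization and the estimate of the spread, so the comparisons are not fully independent. ITGAV and ITGA2 were DE and higher in CM of HCT-8/FU, and no tested member was DE and lower. Of all tested genes, 9.25% were DE, 7.97% higher and 1.28% lower, and 86.2% of the DE genes were higher. The FDR alone was passed by 6 of 9 members, against 19.7% of all tested genes, and the libraries did not overlap for 8 of 9 members, against 61.4% of all. The median log2FC was 0.26 over the members and −0.059 over all tested genes. The same correction turned the median over the members to −0.13.

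ITGAV had 62.6 and 54.0 CPM with CM of HCT-8, against 148 CPM in each library with CM of HCT-8/FU. The log2FC was 1.36 (standard error 0.0913, FDR = 4.38e-07 by edgeR), or 2.56-fold. ITGA2 had 98.5 and 85.6 CPM with CM of HCT-8, against 163 and 156 with CM of HCT-8/FU. Its log2FC was 0.80 (standard error 0.0851, FDR = 8.86e-06 by edgeR). Both genes lay higher with CM of HCT-8/FU in every library, at levels between those of the untreated sensitive and resistant cells.

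ITGB8 had 3 and 30 counts with CM of HCT-8, or 0.345 and 1.13 CPM, against 55 and 48 with CM of HCT-8/FU, or 1.76 and 1.56 CPM. Its replicates in CM of HCT-8 stood far apart, and its log2FC of 0.95 (standard error 0.468) did not pass the FDR (FDR = 0.18 by edgeR). Without CM of HCT-8 replicate 2, the log2FC of ITGB8 was 2.25 (standard error 0.775, FDR = 0.0441 by edgeR), and without CM of HCT-8 replicate 1 it was 0.55. The other libraries left out in turn gave values between these. With the correction for base composition and gene length, the log2FC of ITGB8 was 0.33 (FDR = 0.74 by edgeR).

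Among the remaining members, ITGA6 had 492 and 431 CPM with CM of HCT-8, against 586 and 588 with CM of HCT-8/FU (log2FC 0.35). ITGB1 had 454 and 385 CPM against 503 and 498 (log2FC 0.26). ITGA3 had 714 and 706 CPM against 616 and 609.8 (log2FC −0.21). All 3 genes met the FDR limit with a log2FC under 0.58, as did ITGB5, with 192 and 195 CPM against 158 and 157 (log2FC −0.29). With the correction for base composition and gene length, none of these genes passed the FDR. The lowest was that of ITGB5 (FDR = 0.138 by edgeR). ITGB4 had 594 and 576 CPM against 526 and 521 (log2FC −0.16, FDR = 0.107 by edgeR). The libraries of ITGAE overlapped, with 13.7 and 14.7 CPM against 13.7 and 11.2 (log2FC −0.19, FDR = 0.416 by edgeR).

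The difference between both comparisons was tested for each member, and 7.69% of all tested genes were DE for it. None of the 9 members was, in edgeR or in DESeq2, and 2 of 9 had an unadjusted p under 0.05. ITGAV differed by 0.17 on the log2 scale (standard error 0.128, FDR = 0.48 by edgeR), and ITGA2 by −0.085 (standard error 0.12, FDR = 0.74 by edgeR). ITGB8 differed by 1.62 (standard error 0.701, FDR = 0.169 by edgeR). It passed both thresholds without CM of HCT-8 replicate 1, where the difference was 1.99 (standard error 0.656, FDR = 0.0428 by edgeR). Over all libraries left out in turn it ran from 0.30, without CM of HCT-8 replicate 2, to 2.46, without HCT-8 replicate 2, and passed in 1 of 8.

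CM of HCT-8 was also compared with HCT-8, which addresses conditioned medium as such and shares its groups with the comparisons above. Of all tested genes, 8.15% were DE. None of the 9 members was DE, in edgeR or in DESeq2, and 5 of 9 had an unadjusted p under 0.05 and passed the FDR alone, against 19.4% of all tested genes. The libraries did not overlap for 6 of 9 members, against 54.3% of all tested genes. The values on each side were given above. ITGB5 had the largest log2FC among those past the FDR (0.44, standard error 0.0717, FDR = 0.000599 by edgeR), followed by ITGB4 (0.31) and ITGA3 (0.20). ITGAV (−0.36) and ITGA2 (−0.30) lay on the other side.

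The direction of the members divided by GC content in both main comparisons. The 5 tested members of at most 45% GC (ITGAV, ITGB8, ITGA2, ITGB1 and ITGA6) all had a log2FC above 0 in each, and the 4 members over 50% GC (ITGAE, ITGB5, ITGA3 and ITGB4) all had one below 0. Of all tested genes of at most 45% GC, 72.9% lay above 0 in HCT-8/FU against HCT-8 and 70.4% in the CM comparison. Of those over 50% GC, 65.5% and 74% lay below 0. Over the 9 members, Spearman's rho of log2FC with GC content was −0.85 between the lines and −0.87 in the CM comparison. Over all tested genes it was −0.40 in each. With the correction for base composition and gene length, rho over the members was −0.72 and −0.78. These values describe genes that share the same libraries, and the part of base composition in the changes of the members was not tested.

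**Figure D4:**
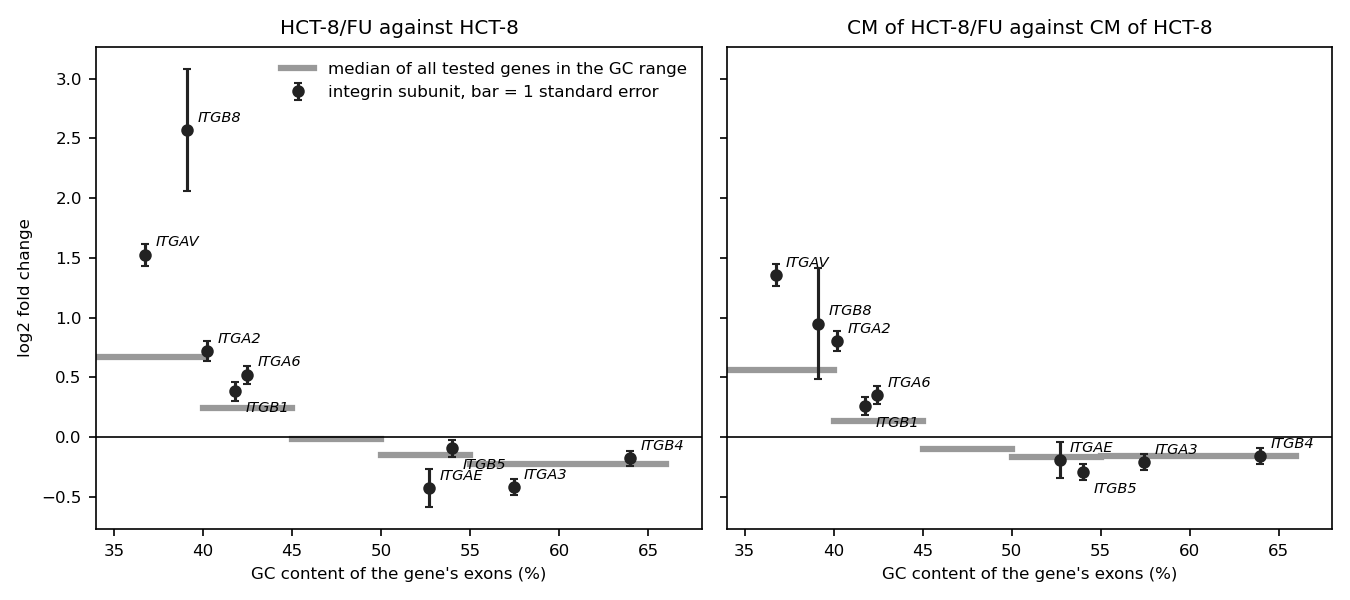
Log2 fold change of the 9 tested members (points, with bars of 1 standard error) against the GC content of their exons, with grey lines at the median of all tested genes in 5 ranges of GC content. The outer ranges, up to 40% and over 55%, run on beyond the axis. All members under 45% GC lie above 0 and above the median of genes of their range in both panels. For ITGAV and ITGB8 that median is 0.67 in HCT-8/FU against HCT-8.

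Tested genes of at most 40% GC had a median log2FC of 0.67 in HCT-8/FU against HCT-8, and 43.7% of them were DE and higher. In the CM comparison the median was 0.56, and 36.7% were DE and higher. ITGAV (1.53 and 1.36) and ITGB8 (2.57 and 0.95) lay above both medians. Genes over 40% and up to 45% GC had medians of 0.24 and 0.14. ITGA2 (0.72 and 0.80), ITGA6 (0.52 and 0.35) and ITGB1 (0.38 and 0.26) lay above both of these. A correction that subtracts from each library its trend over all genes with GC content and gene length brought ITGAV to 0.80 (standard error 0.0885, FDR = 1.8e-05 by edgeR) and 0.59 (standard error 0.0882, FDR = 0.00118 by edgeR), and it stayed DE in both, in the CM comparison barely past the fold threshold of 0.58. ITGB8 stayed DE between the lines with 1.98 (FDR = 0.0107 by edgeR). ITGA2 was no longer DE, with 0.24 between the lines (FDR = 0.0543 by edgeR) and 0.36 in the CM comparison (FDR = 0.0183 by edgeR). ITGB1 turned to −0.042 between the lines and to −0.17 in the CM comparison, and ITGB4 (0.016) and ITGB5 (0.040) turned between the lines, none of them past the FDR. With the correction, 47.5% of all DE genes were higher between the lines and 55.1% in the CM comparison. Below it is called the GC correction, though it covers gene length as well. The parts of GC content and length in it were not separated.

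Libraries of like alignment were also compared among themselves, since over 15% of records were not aligned in 3 of them. Between HCT-8/FU replicate 2 and HCT-8 replicate 1, which both belong to them, ITGAV differed by 1.39 on the log2 CPM scale, ITGA2 by 0.62 and ITGB8 by 3.13. Between HCT-8/FU replicate 1 and HCT-8 replicate 2, which do not, the differences were 1.64, 0.80 and 2.19. In the CM comparison, replicates 1 and 2 of CM of HCT-8/FU lay above CM of HCT-8 replicate 2 by 1.46 and 1.45 for ITGAV, by 0.93 and 0.87 for ITGA2 and by 0.60 and 0.43 for ITGB8.

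The promoters of ITGAV and ITGA2, the members that were DE in both main comparisons, are shown to let their bases be compared. RefSeq promoter sequences on GRCh38 were found for 8 of the 10 members, and all 8 matched the genome. From the 250 bases before the start of the gene, the stretch that lies before all annotated exons is printed, chr2:186589806-186590009 for ITGAV and chr5:52989102-52989339 for ITGA2, both on the plus strand, with motif matches in capitals.
ITGAV: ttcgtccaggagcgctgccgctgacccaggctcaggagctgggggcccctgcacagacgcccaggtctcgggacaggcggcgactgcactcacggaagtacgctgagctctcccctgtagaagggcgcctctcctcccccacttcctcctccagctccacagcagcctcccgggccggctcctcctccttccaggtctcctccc
ITGA2: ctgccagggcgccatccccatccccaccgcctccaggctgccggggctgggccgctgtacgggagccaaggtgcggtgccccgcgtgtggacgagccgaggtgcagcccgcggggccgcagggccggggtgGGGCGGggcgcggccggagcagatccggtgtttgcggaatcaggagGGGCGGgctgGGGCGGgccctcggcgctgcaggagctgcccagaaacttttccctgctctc
Both are rich in G and C, with 69.1% in ITGAV and 75.6% in ITGA2, unlike the exons of these genes. The letters searched on both strands were TGANTCA (AP-1), found in 6.57% of 35114 promoters of 250 bases, GGGCGG (GC box, 42.6%), GGAATG (TEAD, 11.9%), CCAAT (32%), TATAAA (10.7%) and CACGTG (E-box, 6.35%). The stretch of ITGA2 holds 3 matches of GGGCGG and no other match, and that of ITGAV holds none of the 6. The letters do not overlap each other in ITGA2.

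The study lists qPCR primers for ITGAV, though its text gives no qPCR value for this gene. The primers follow, printed 5′ to 3′. Their product of 148 bases lies in the coding sequence and holds 60.1% G and C, far above the exons of the gene as a whole. The forward primer lies in exon 1 at chr2:186590388-186590407, and the reverse primer spans the junction of exon 1, which ends at 186590523, and exon 2, which starts at 186602021.
forward: cgcttcttctctcgggactc
reverse: agaaacatccgggaagacgc

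The gene most alike to each member in its pattern over the 8 libraries was sought among 10872 other protein-coding genes whose mean reached 5 CPM. For ITGAV it was ASPM, a protein of the mitotic spindle, with a Pearson r of log2 CPM of 0.999. It was PDS5A, a regulator of cohesin, for ITGA2 (0.997), NOC3L, a nucleolar protein, for ITGA6 (0.997), and ASPH, a hydroxylase, for ITGB1 (0.994). For the members of high GC content, it was QSOX1 for ITGA3 (0.993), the Wnt co-receptor LRP5 for ITGB4 (0.991), the small GTPase MRAS for ITGB5 (0.988) and DPF2, a chromatin remodeling subunit, for ITGAE (0.987). ITGB8 was most like FBXO33 (0.993). Among the members, ITGAV and ITGA2 were the most alike (0.991), and ITGB1 and ITGA3 ran most against each other (−0.895). The points are the same 8 libraries in 4 groups. The genes named for members of low GC content held from 36.4% (ASPM) to 44.6% (FBXO33) G and C, and those for members of high GC content from 50.6% (DPF2) to 62.6% (LRP5).

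Other integrin genes were looked at from a list of 16 further subunits, of which 10 were tested. Between HCT-8/FU and HCT-8, none was higher, and ITGA5, the alpha subunit of the main fibronectin receptor, was lower (log2FC −0.65, standard error 0.0747, FDR = 7e-06 by edgeR), which was not DE with the GC correction. None of the 10 was DE in the CM comparison. ITGA5 ranged from 87.8 to 144 CPM over the libraries, and ITGAX, an integrin of leukocytes, from 38.9 to 67.0. ITGB7, the known partner of ITGAE, had 505 counts over all 8 libraries. ITGA1 (15 counts), ITGB3 (6 counts), ITGAL (5 counts), ITGA4 and ITGA8 (0 counts each) were close to absent.

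Of 24 tested genes for proteins that integrins bind, most of them of the matrix, 4 were DE between the lines, where 21.3% of all tested genes were. FN1, fibronectin, was higher in HCT-8/FU (log2FC 1.302, standard error 0.321, FDR = 0.00473 by edgeR), from 1030 counts over 8 libraries. It had 45 and 122 counts for HCT-8 against 263 and 85 for HCT-8/FU, in libraries of unlike depth. Over all libraries it ranged from 3.43 to 14.2 CPM. LAMB3, a chain of the laminin of epithelial basement membranes, was lower (−0.86, FDR = 1.02e-06 by edgeR), as were TNC, tenascin C (−0.75), and LAMB2, another laminin chain (−0.62). In the CM comparison 0 of the 24 were DE in edgeR. The median log2FC of the list was −0.15 and −0.13. With the GC correction, 2 were higher and 2 lower between the lines.

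Of 43 tested genes for proteins of the adhesion complex inside the cell, 4 were DE and higher and 4 DE and lower between the lines, where 21.3% of all tested genes were DE. The kinase ROCK1, which drives contraction of actomyosin, was higher in HCT-8/FU (log2FC 1.08, FDR = 5.03e-05 by edgeR) as well as with CM of HCT-8/FU (1.304, FDR = 2.9e-05 by edgeR). Its relative ROCK2 was higher in HCT-8/FU too (1.02, FDR = 2.51e-05 by edgeR). The tyrosine kinases PTK2B (−0.78) and FYN (−0.70) were lower in HCT-8/FU. In the CM comparison 4 were higher (ROCK1, ROCK2, KRIT1 and FERMT2) and none was lower, where 9.25% of all tested genes were DE. FERMT2, a kindlin, passed the test there on 0 counts in both libraries of CM of HCT-8 against 5 and 11, so that its fitted change depends on the prior count and is not given as a fold. The median of the list was −0.091 and −0.082. With the GC correction, 0 were higher and 4 lower between the lines, and 1 higher and 2 lower in the CM comparison. These were not all the same genes. Between the lines PXN (−0.39) and ZYX (−0.35) were no longer DE, while FERMT2 and RAP1B (−0.63) became DE and lower. In the CM comparison the 2 lower genes were RAP1B (−0.68) and CDC42 (−0.70), neither of them DE without the correction.

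Of 8 hemidesmosome genes, 2 were higher and 1 lower between the lines, where 21.3% of all tested genes were DE. With the GC correction, 2 were higher and 0 lower, as CD151 (−0.34) was no longer DE. DST, a plakin that ties the hemidesmosome to the cytoskeleton, was higher in HCT-8/FU (log2FC 1.33, standard error 0.149, FDR = 5.64e-06 by edgeR) as well as with CM of HCT-8/FU (1.68, standard error 0.155), and stayed DE with the GC correction in both. The keratin KRT14 was higher in HCT-8/FU (1.40, FDR = 0.0314 by edgeR) on 239 counts over 8 libraries. It had 4 and 19 counts for HCT-8 against 46 and 8 for HCT-8/FU, in libraries of unlike depth. The tetraspanin CD151 was lower (−0.583, FDR = 0.000104 by edgeR), barely past the fold threshold. In DESeq2, 1 gene of the list was higher and 0 were lower between the lines. DST was the 1 gene of the list that was DE in the CM comparison. The median of the list was 0.032 between the lines and −0.11 in the CM comparison.

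Of 17 surface partners of integrins, 8 were DE between the lines, 4 in each direction, where 21.3% of all tested genes were DE. SLC3A2, the heavy chain of CD98, was lower in HCT-8/FU (log2FC −1.39, standard error 0.0845, FDR = 2.33e-08 by edgeR), as was the protease ADAM17 (−0.88). The proteoglycan SDC1 (0.76) and the protease ADAM9 (0.75) were higher. ADAM9 was the 1 gene of the list that was DE in the CM comparison (0.79, FDR = 2.6e-05 by edgeR). With the GC correction, 1 was higher and 3 lower between the lines, and none was DE in the CM comparison. The median of the list was 0.11 and −0.22. Of the epithelial markers, EPCAM (0.61) and VIL1 (0.96) were higher and CLDN7 (−0.96) was lower between the lines, and their part in the changes of the members was not tested.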

How the data were processed

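RNA was sequenced after capture of mRNA on beads. Reads were aligned by the authors with HISAT2 (build GRCh38), then assigned to Ensembl genes with HTSeq, and the deposited values are raw counts per gene. The sources used here do not say whether strand was used. Between 29.7% and 40.8% of a library's records lay on genes, and the lines that name no gene were left out. The authors' DESeq2 tables of fold changes and p-values were not used.

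All 4 groups (8 libraries) were fitted together in edgeR 4.0.16 (R 4.3.3) with filterByExpr, TMM and the quasi-likelihood test, with Benjamini-Hochberg FDR over 20305 genes. A standard error is the log2FC divided by the root of the F statistic. log2 CPM used a prior count of 2. Alternatives were DESeq2 1.42.0, its size factors, another TMM reference, other count filters, only the groups compared, a replicate block, a term for the libraries of over 15% unaligned records, FDR alone, splines (5 degrees of freedom) of GC content and length, and leaving out each library. Gene length by exon union, for levels and shares, was added after the data were seen. Fits were tested on simulated data.

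The members and lists were chosen with earlier results of these data known. All members are named, and of the DE genes in a list the 2 with the largest and the 2 with the smallest log2FC, or all where 5 or fewer. Replicate numbers did not pair the libraries. GENCODE 44 held 56105 of 64253 identifiers. The value of 1 marker gene is not reported here.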

Additional observations from a re-analysis of the deposited data

How the results depend on the processing

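The members called DE were counted under each alternative. By FDR alone, 8 members passed between the lines, 6 in the CM comparison and 5 for CM of HCT-8 against HCT-8. Correcting for base composition and exon length left 1 in the CM comparison, also 1 with the replicate block. Leaving out a library gave 0 to 1 members for the difference between the comparisons. All other counts of DE members stayed within 1.5 times.

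The correction reversed ITGB1 (−0.042), ITGB4 (0.016) and ITGB5 (0.040) between the lines, ITGB1 (−0.17) in the CM comparison, ITGA6 (0.093), ITGAV (0.028) and ITGB1 (0.12) for CM of HCT-8 against HCT-8. It also reversed ITGB4 (0.15) in the difference. With the replicate block added these were −0.041, 0.016, 0.040, −0.17, 0.092, 0.027, 0.12 and 0.15, and the block alone changed no call of a member (3 DE between the lines, 2 in the CM comparison). It left 1 of 8 hemidesmosome genes higher and 0 lower between the lines. Replicate numbers did not pair the libraries (correlations from −0.123 to 0.132). For CM of HCT-8 against HCT-8, leaving out a library gave −0.12 to 0.071 for ITGA6, −0.21 to 0.025 for ITGB1 and −0.55 to 1.62 for ITGB8. In the difference it gave −0.011 to 0.22 for ITGB1, −0.078 to 0.010 for ITGB4, −0.19 to 0.014 for ITGA2 and 0.30 to 2.46 for ITGB8. ITGA6 became DE between the lines when CM of HCT-8 replicate 2 served as TMM reference (0.61), where 72.6% of all DE genes were higher. Without CM of HCT-8 replicate 2, 68.4% were higher in the CM comparison. The cause was not tested. Counts of list genes moved by over 1.5 times in 87 recounts and not in 885. ITGB6 (0 to 9 counts in a library) and ITGB8 (2 to 91) had few counts, which limits the precision of their values.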
